A study of Rattus norvegicus with 6 samples.

Results

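The genes described here encode the proteasome, and were taken as all rows of the deposited expression table whose gene name begins with Psm, a letter from a to g and a digit. There were 49 such genes among 19289 listed features. They comprise 7 genes of the 20S alpha ring, 7 of the constitutive 20S beta ring, 6 of the immunoproteasome and its activator, 6 ATPases of the 19S base, 11 other 19S subunits, 7 assembly factors, 3 other activators or inhibitors, and 2 genes (Psmc3ip and Psme3ip1) that the name pattern takes in but that encode no subunit. The alpha 3 subunit is listed under the name Psma3l. The study sequenced mRNA, purified on oligo(dT), from INS-1E cells. This line was derived from a rat tumour of pancreatic beta cells and still makes insulin. There were 3 libraries from cells kept with uric acid (UA) for 24 hours and 3 from untreated cells. The labels used here give no uric acid concentration and no vehicle, and do not say whether the libraries of a group came from separate cultures, so a p-value here reflects no more than how far these libraries differ within a group, which may be technical. All 6 libraries come from 1 immortalised line, not from islets.

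The proteasome is the main protease of the cytosol and nucleus. It degrades proteins tagged with ubiquitin. Its barrel-shaped 20S core stacks rings of alpha subunits, which gate the entrance, on rings of beta subunits, of which beta1, beta2 and beta5 cut peptide bonds. The 19S cap binds the ubiquitin chain, removes it, and unfolds the substrate with a ring of ATPases. Interferon replaces the catalytic subunits by their immunoproteasome forms, which alter the peptides made for antigen presentation. When proteasome activity is inhibited, mammalian cells are known to raise subunit genes together through the factor NRF1 (Nfe2l1), which binds antioxidant response elements with small MAF partners.

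The promoters of 4 genes described below are shown. The part of promoter sequence in the results was not tested. Psmd3 and Psme3 are the genes that changed, and Psmb8 and Psmb5 are the immunoproteasome and constitutive forms of the beta5 subunit. The sequences are from RefSeq (build GRCr8), run 5′ to 3′ on the gene's strand, and cover 250 bases before to 50 after the start. Capitals mark every match, on either strand, to TGACNNNGC (antioxidant response element core), CCAAT (the box bound by NF-Y), the core of the interferon-stimulated response element (GAAA, any 2 bases, GAAA) or TGATGNAA (core of the element bound by C/EBP and ATF factors).
Psmd3 (chr10:84139688-84139987, plus strand): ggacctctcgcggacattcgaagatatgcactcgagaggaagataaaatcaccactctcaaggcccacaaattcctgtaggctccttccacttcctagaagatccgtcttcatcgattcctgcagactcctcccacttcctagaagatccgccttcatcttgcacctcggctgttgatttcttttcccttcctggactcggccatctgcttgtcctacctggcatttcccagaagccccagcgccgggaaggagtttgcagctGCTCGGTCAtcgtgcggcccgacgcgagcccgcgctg
Psme3 (chr10:86757683-86757982, plus strand): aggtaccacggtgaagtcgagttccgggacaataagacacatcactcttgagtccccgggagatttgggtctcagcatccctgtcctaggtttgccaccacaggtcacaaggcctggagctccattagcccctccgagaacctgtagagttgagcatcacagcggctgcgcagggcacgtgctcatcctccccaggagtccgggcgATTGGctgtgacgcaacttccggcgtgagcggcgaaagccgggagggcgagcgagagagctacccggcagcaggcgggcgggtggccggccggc
Psmb8 (chr20:4656982-4657281, minus strand): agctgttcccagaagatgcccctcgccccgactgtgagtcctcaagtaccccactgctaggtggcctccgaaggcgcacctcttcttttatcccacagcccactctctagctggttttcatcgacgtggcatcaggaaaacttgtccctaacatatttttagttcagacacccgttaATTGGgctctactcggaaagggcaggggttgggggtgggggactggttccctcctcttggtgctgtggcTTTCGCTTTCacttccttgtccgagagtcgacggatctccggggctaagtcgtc
Psmb5 (chr15:32047330-32047629, minus strand): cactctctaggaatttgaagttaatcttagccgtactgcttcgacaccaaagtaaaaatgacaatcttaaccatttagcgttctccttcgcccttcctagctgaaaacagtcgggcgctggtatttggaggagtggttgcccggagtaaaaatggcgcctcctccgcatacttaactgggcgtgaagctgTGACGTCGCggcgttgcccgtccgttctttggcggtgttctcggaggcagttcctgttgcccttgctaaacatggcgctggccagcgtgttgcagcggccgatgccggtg

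A match was found for the antioxidant response element core in Psmd3 and Psmb5, for the CCAAT box in Psme3 and Psmb8, and for the interferon-stimulated core in Psmb8. Promoter sequences were matched for 44 of the 49 genes, Psma3l through the RefSeq symbol Psma3. The antioxidant response element core was present in 8 of the 44 (18.2%) and in 12.1% of all 33469 promoters of the same length. The CCAAT box was present in 23 of 44 (52.3%), against 37.5% of all promoters. The interferon-stimulated core was present in 7 of 44 (15.9%), against 3.92%. These 7 are Psmb8, Psmb10, Psme2, Psmb3, Psma4, Psmd7 and Psmg4. The C/EBP and ATF core was present in 2 of 44 (4.55%), Psmb2 and Psmb4, against 3.98%. These are matches of letters, not measured binding.

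Summed estimated counts ranged from 41191819 to 48875962 in uric acid libraries and from 47858248 to 59092982 in untreated libraries. The 49 genes together held 0.494 to 0.508% of the counts in uric acid libraries and 0.513 to 0.562% in untreated libraries. Their summed FPKM overlapped between groups: 3096.9, 3095.7 and 2915.2 in uric acid libraries 1, 2 and 3, against 2988.1, 3233.7 and 3353.5 in untreated libraries 1, 2 and 3. The 12 beta-cell markers, the insulin genes among them, summed to 68158 to 80686 FPKM with uric acid and 69543 to 83496 FPKM untreated, sums made up mostly of Ins1 and Ins2. Of the 12, 10 (83.3%) had a log2 fold change (uric acid over untreated) below 0, against 49.8% of all tested features. Groups did not overlap for 41.7% of the 12, against 31% of all tested features. For 4 the uric acid libraries all lay below the untreated ones, beside 14.2% of all features. For 1 they all lay above, beside 16.8%. The transcription factor gene Mafa was the 1 past the threshold used below, at 282 ± 29.5 FPKM with uric acid and 389 ± 16.8 FPKM untreated (SD, n = 3 libraries each; -0.46 ± 0.08, edgeR adjusted p = 0.0129). The called share was 8.33% of the 12 markers, against 7.98% of all tested features. The part of these markers in the results below was not tested. FPKM is a fragment count divided by the length of the transcript and the size of the library. Of 20 markers of other pancreatic, stromal, vascular and immune cells, 15 were listed, and 12 of these had a mean below 1 FPKM. Sst, Cpa1, Cela1, Pecam1 and Ptprc were not listed under these names, so their levels are not known here. None of the 19289 listed features was 0 in every library, so being listed says little about a marker. The 15 markers summed to 12.6 to 15.5 FPKM with uric acid and 9.75 to 15.4 FPKM untreated. In bulk RNA, fewer cells with a transcript and less transcript per cell cannot be told apart.

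Few proteasome genes passed the test. Of the 48 with a mean of at least 1 FPKM, which were tested, none was higher with uric acid and 2 were lower: Psmd3, a 19S lid subunit, and Psme3, the nuclear activator PA28 gamma. The test was edgeR's quasi-likelihood test with Benjamini-Hochberg adjustment over all 12460 tested features, and the threshold an adjusted p under 0.05. The called share was 4.17% of the proteasome genes against 7.98% of all tested features, and the 2 lower calls of 48 stand beside a background of 2.99% called lower and 4.99% called higher. At an unadjusted p under 0.05, 9 proteasome genes were lower and 1 was higher, and 25.7% of all tested features passed. No proteasome gene was called higher in any of the 17 alternative analyses, DESeq2 and limma included.

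Log2 fold changes (uric acid over untreated) ran from -0.45 to 0.21, with a median of -0.07 beside 0.00127 over all tested features. The value was below 0 for 37 of the 48 (77.1%), against 49.8% of all tested features. With 1 library left out it was below 0 for 28 (without uric acid library 3) to 40 (without uric acid library 2) of the 48, and 17 genes changed sign in at least 1 of these fits. Groups did not overlap for 11 of the 48 (22.9%), against 31% of all tested features. Of these 10 were lower with uric acid, beside 14.2% of all features, and 1 was higher, beside 16.8%. The 95% interval of the log2 fold change lay between -0.5 and 0.5 for 40 of the 48 (83.3%), against 60.1% of all tested features; this bound, a 1.41-fold change, was chosen after the values were seen. The 8 genes with wider or shifted intervals were Psmd3, Psmd1, Psmd10, Psmg2, Psmb8, Psmb9, Psmb10 and Psmc3ip.

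**Figure D1:**
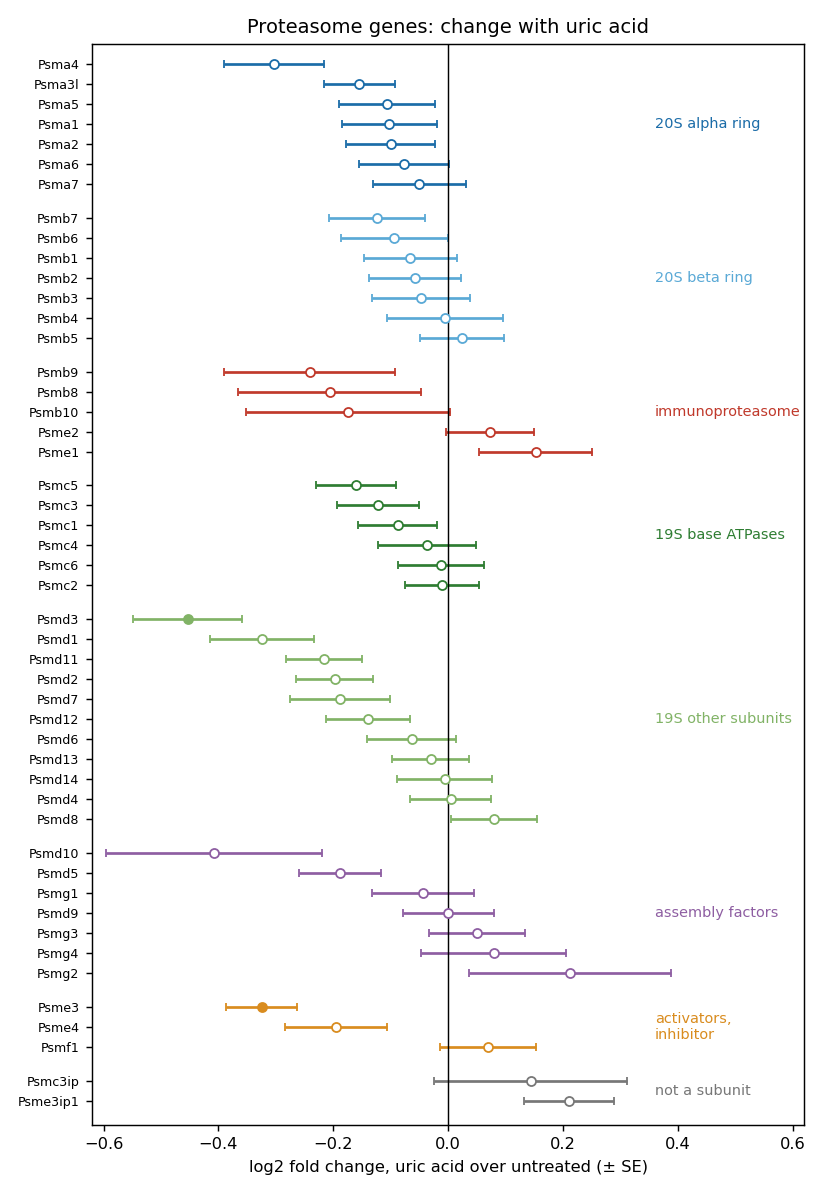
Log2 fold change of each tested proteasome gene (x axis, uric acid over untreated, edgeR, bars show the standard error), grouped by class down the y axis. Filled points are the 2 genes past the threshold, Psmd3 at -0.45 and Psme3 at -0.32; open points did not pass.

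None of the 7 alpha ring genes passed the test, and all 7 values lay below 0, with a median of -0.10. Leaving out 1 library turned the sign of Psma7, whose value was -0.05, and of no other gene of the ring. Psma4, an alpha ring subunit, had the lowest value of the ring. It stood at 15.9, 14.5 and 16.5 FPKM in uric acid libraries 1, 2 and 3, against 17.6, 19.4 and 20.8 FPKM in untreated libraries 1, 2 and 3. The groups did not overlap, and the log2 fold change was -0.30 ± 0.09 (SE, adjusted p = 0.065 with edgeR). DESeq2 called Psma4 lower (adjusted p = 0.0212). Psma3l, which encodes alpha 3, also had separate groups, at 18.00 ± 0.491 FPKM with uric acid and 20.02 ± 0.297 FPKM untreated (mean ± SD, n = 3 libraries per group; log2 fold change -0.15, edgeR adjusted p = 0.16). Psma7 had the highest level of all 49 genes. It stood at 262, 266 and 234 FPKM in the uric acid libraries, against 240.1, 272 and 276 FPKM in the untreated libraries, and these ranges overlapped. Psma1, Psma2, Psma5 and Psma6, the other ring members, had log2 fold changes between -0.11 and -0.08.

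In FPKM, alpha ring messages were far from equal in level, although the protein subunits are present in equal number. Mean FPKM over the 6 libraries ran from 17.5 for Psma4 to 258 for Psma7, a 14.8-fold range with a median of 79.2 FPKM. The 2 lowest, Psma4 and Psma3l (19.01 FPKM), are listed with both coding and intron-retaining transcripts. Their count per FPKM, which is proportional to the transcript length the authors divided by, was 2.81 and 2.55 times that of the median proteasome gene, against 0.627 to 0.842 times for the other 5 alpha genes. These other 5 ran from 52.7 FPKM for Psma6 to 258 FPKM for Psma7. In uric acid library 2, Psma4 and Psma3l had counts of 2840 and 3220, beside 2843 for Psma6. The part of length in the low FPKM of Psma4 and Psma3l was not tested. RefSeq names 46 pseudogenes after 19 of the 49 genes, among them 3 for Psma7, 5 for Psma6 and 7 for Psmb3, and reads of such copies may not have been assigned with certainty.

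None of the 7 genes of the constitutive beta ring passed, the groups overlapped for all 7, and the median log2 fold change was -0.06. Leaving out 1 library turned the sign of Psmb2, Psmb3, Psmb4 and Psmb5. The lowest value was that of Psmb7 (beta2, which cuts after basic residues) at -0.12 ± 0.08. Psmb7 stood at 91.3, 92.4 and 84.8 FPKM with uric acid, against 87.1, 101 and 104 FPKM untreated. Psmb5 (beta5, which cuts after hydrophobic residues and is the main target of bortezomib) had the one value above 0, at 0.02 ± 0.07 with a 95% interval from -0.14 to 0.19. Its levels were 88.5, 86.2 and 81.2 FPKM with uric acid, against 78.6, 85.0 and 87.7 FPKM untreated. Psmb6 (beta1, which cuts after acidic residues) stood at 103, 117 and 102 FPKM with uric acid, against 103, 114 and 125 FPKM untreated. The beta ring was the more even in level: means ran from 84.5 FPKM for Psmb5 to 219 FPKM for Psmb4, a 2.59-fold range. Summed over both rings, the 14 constitutive 20S genes reached 1581 ± 63.6 FPKM with uric acid and 1651 ± 136 FPKM untreated (SD, n = 3 libraries per group).

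The catalytic genes of the immunoproteasome had low levels in every library, and none of the 5 tested genes of the class passed. Psmb9 (beta1i) stood at 5.30, 4.47 and 4.20 FPKM with uric acid, against 4.87, 5.59 and 6.04 FPKM untreated, a log2 fold change of -0.24 ± 0.15. Psmb8 (beta5i) stood at 5.40, 6.14 and 4.18 FPKM with uric acid, against 6.28, 5.37 and 6.44 FPKM untreated (-0.21 ± 0.16). Uric acid library 3 was the lowest of the 6 for both genes, and the groups overlapped. Psmb10 (beta2i) stood at 14.8, 17.6 and 13.1 FPKM with uric acid, against 15.8, 14.0 and 21.3 FPKM untreated (-0.17 ± 0.18). Its sign depended on 1 library: without untreated library 3 the value was 0.03. Psmb11, the thymus form of beta5, was listed at 0 in all uric acid libraries and at 0.0853, 0 and 0.054 FPKM in untreated libraries 1, 2 and 3, and was not tested. The 95% intervals were wide, from -0.58 to 0.10 for Psmb9 and from -0.57 to 0.15 for Psmb8.

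The share of the immunoproteasome form at each catalytic position was small in both groups. Psmb9 made up 4.91, 3.69 and 3.95% of the summed FPKM of Psmb9 and Psmb6 in the uric acid libraries, against 4.5, 4.67 and 4.62% in the untreated libraries. Psmb8 made up 5.74, 6.65 and 4.90% of the sum with Psmb5 with uric acid, against 7.39, 5.95 and 6.84% untreated. Psmb10 made up 13.9, 16.0 and 13.3% of the sum with Psmb7 with uric acid, against 15.3, 12.2 and 16.9% untreated. The log2 ratio of the 2 forms (uric acid minus untreated) was -0.15 for Psmb9 over Psmb6 (p = 0.4), -0.24 for Psmb8 over Psmb5 (p = 0.2) and -0.04 for Psmb10 over Psmb7 (p = 0.9), by two-sided exact permutation tests of 3 libraries against 3, which cannot go below 0.1. Adjusted over the 3 ratios, p was 0.6, 0.6 and 0.9. Leaving out uric acid library 3 or untreated library 3 turned the Psmb10 ratio to 0.02 and 0.08.

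**Figure D2:**
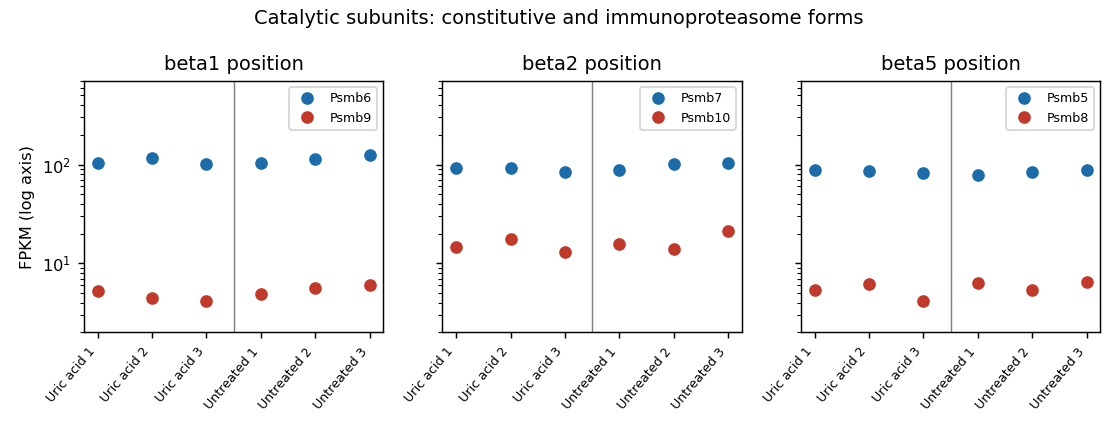
FPKM (y axis, log scale) of the constitutive and immunoproteasome genes at the 3 catalytic positions in each library (x axis, uric acid left of untreated). In each library the constitutive gene, at 78.6 FPKM or more, lay above its immunoproteasome form, at 21.3 FPKM or less.

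Psme1 and Psme2, the PA28 alpha and beta chains that cap the core and are raised by interferon, had values above 0 without passing. Psme1 stood at 51.6, 53.0 and 47.8 FPKM with uric acid, against 43.8, 41.6 and 51.4 FPKM untreated (0.15 ± 0.10, edgeR adjusted p = 0.365). Psme2 averaged 30.5 FPKM with uric acid and 29.0 FPKM untreated (0.07 ± 0.08). The listed span of Psme1 overlaps that of Emc9 on the other strand, which averaged 1.58 FPKM. In the table Psme1 and Psme2 lie 6609 bases apart on chromosome 15, and Psmb9 and Psmb8 lie 11767 bases apart on chromosome 20. No source used here names the genome build of the deposited positions, which differ from those in GRCr8.

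A list of interferon pathway and antigen presentation partners was read beside the immunoproteasome genes. Of its 20 genes 19 were tested, and 3 were higher with uric acid and none lower by edgeR (15.8%, against 7.98% of all features). At an unadjusted edgeR p under 0.05, 6 were higher and 2 lower, and 25.7% of all tested features passed. The median log2 fold change of the list was 0.09. Irf2 and Irf1, transcription factors, were among the 3. Irf2 averaged 16.7 ± 1.28 FPKM with uric acid and 9.09 ± 0.285 FPKM untreated (0.88 ± 0.09, adjusted p = 0.000875). Irf1, which drives immunoproteasome genes after interferon, averaged 20.5 ± 0.925 FPKM with uric acid and 15.0 ± 0.0703 FPKM untreated (0.45 ± 0.07, 0.00851). Irf2 passed without any 1 library. Irf1 did not pass without uric acid library 1 (adjusted p = 0.0501) or untreated library 2 (0.0621). Tap1 (-0.11) and Tap2 (-0.18), the peptide transporter genes beside Psmb8 and Psmb9, and B2m (0.09) did not pass.

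None of the 6 ATPases of the 19S base passed. Their median log2 fold change was -0.06, and all 6 values lay below 0. Leaving out 1 library turned the sign of 3 of them, Psmc2, Psmc4 and Psmc6. Psmc5 had the lowest, at 60.9, 65.0 and 64.8 FPKM with uric acid, against 67.5, 71.8 and 73.8 FPKM untreated. Its groups did not overlap, and the log2 fold change was -0.16 ± 0.07 (edgeR adjusted p = 0.186). Psmc6, the lowest in level, stood at 19.02, 19.2 and 17.3 FPKM with uric acid, against 18.6, 19.3 and 18.0 FPKM untreated. Psmc2 (-0.01), Psmc4 (-0.04), Psmc1 (-0.09) and Psmc3 (-0.12) had 95% intervals between -0.28 and 0.16 (Psmc3 the lower bound, Psmc4 the upper).

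Among the 11 other 19S subunits, Psmd3 fell and none rose. Psmd3, which encodes the lid subunit Rpn3, stood at 63.8, 53.4 and 70.05 FPKM in uric acid libraries 1, 2 and 3, against 82.8, 87.4 and 86.1 FPKM in untreated libraries 1, 2 and 3. All uric acid libraries lay below all untreated libraries, and uric acid library 2 was the lowest. The group means were 62.4 ± 8.41 and 85.4 ± 2.39 FPKM (uric acid, then untreated; SD, n = 3 libraries each), and the fitted level fell by 27.0% (log2 fold change -0.45 ± 0.09, edgeR adjusted p = 0.0228). Without uric acid library 2 the log2 fold change was -0.36 and the call remained (adjusted p = 0.0187), as it did without uric acid library 3 (-0.54, 0.0102). The call was lost without uric acid library 1 (0.095) and without untreated libraries 1 (0.0663), 2 (0.1045) and 3 (0.071). Psmd3 (ENSRNOG00000028103) lies on chromosome 10 from 86599220 to 86611188 in the deposited table.

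The large scaffold subunits and part of the lid had values on the same side of 0 as Psmd3 without passing in edgeR. Psmd1 (Rpn2, a scaffold subunit) stood at 26.7, 21.7 and 27.8 FPKM with uric acid, against 31.7, 32.3 and 31.3 FPKM untreated (-0.32 ± 0.09, adjusted p = 0.0616). Psmd2 (Rpn1), the highest 19S gene, stood at 106, 92.8 and 106 FPKM with uric acid, against 115, 118 and 117 FPKM untreated (-0.20 ± 0.07, adjusted p = 0.107). Psmd11 (Rpn6, a lid subunit) stood at 38.6, 34.2 and 36.0 FPKM with uric acid, against 40.9, 43.9 and 41.5 FPKM untreated (-0.22 ± 0.07, adjusted p = 0.0811). For all 3 genes the groups did not overlap, and uric acid library 2 was the lowest library. Among the 11 non-ATPase 19S genes, groups did not overlap for 4 (36.4%), against 31% of all tested features. All 4 were lower with uric acid, beside 14.2% of all features. Uric acid library 2 was the lowest of its group for 40.6% of all features. Psmd1 passed without uric acid library 3 (edgeR adjusted p = 0.0378), and DESeq2 called Psmd1 (adjusted p = 0.0164) and Psmd11 (0.0385).

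The other 7 of these 19S genes had log2 fold changes from -0.19 to 0.08. Psmd14, the enzyme that cuts off ubiquitin chains, was at -0.01 and Psmd4, a ubiquitin receptor, at 0.00428. Psmd8, a lid subunit, had the highest value of the cap: it stood at 65.5, 68.5 and 65.6 FPKM with uric acid, against 58.5, 62.7 and 67.4 FPKM untreated (0.08 ± 0.07). Psmd7 (-0.19), Psmd12 (-0.14), Psmd6 (-0.06) and Psmd13 (-0.03) did not pass. Summed over the 17 genes of the cap, FPKM was 981, 968 and 954 in the uric acid libraries, against 1009, 1062 and 1074 in the untreated libraries. These sums did not overlap between groups. Of the 17 single values 15 (88.2%) lay below 0, against 49.8% of all tested features. For single genes, groups did not overlap for 29.4% of the 17, against 31% of all tested features. Leaving out 1 library turned the sign of Psmd4, Psmd13 and Psmd14, as it did for 3 of the ATPases. Other cap subunits lie outside the name pattern: Adrm1, a ubiquitin receptor, had a log2 fold change of 0.03 and Sem1 of -0.15, and neither passed.

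**Figure D3:**
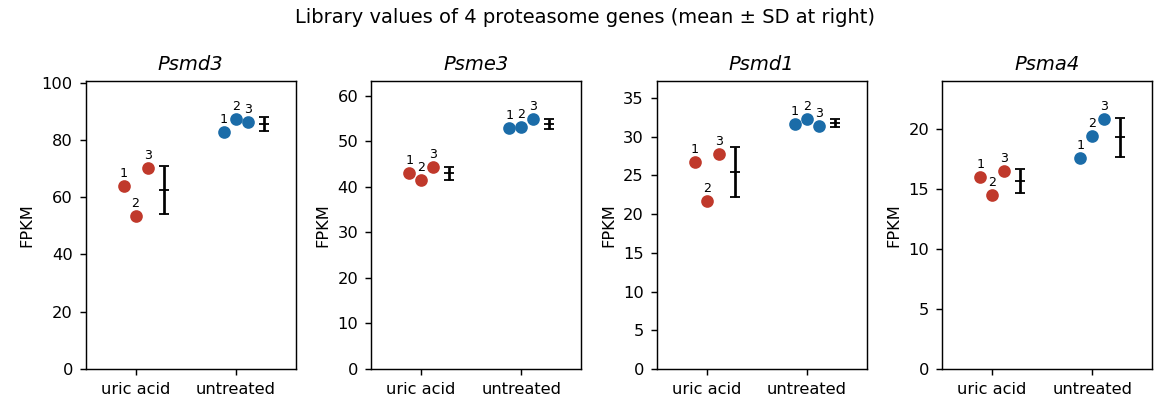
FPKM (y axis from 0) of Psmd3, Psme3, Psmd1 and Psma4 in each library (points, numbered by library; bars at the right of each group show mean ± SD, n = 3). For all 4 genes the uric acid libraries lie below the untreated libraries; Psmd3 and Psme3 passed the threshold, Psmd1 and Psma4 did not.

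None of the 7 assembly factors passed, and their median log2 fold change was -1.26e-05. Psmg1 (-0.04), Psmg2 (0.21), Psmg3 (0.05) and Psmg4 (0.08) encode the PAC chaperones that build the alpha ring. Psmg2, the highest of the class in log2 fold change, stood at 11.5, 16.2 and 11.7 FPKM with uric acid, against 11.1, 9.55 and 13.3 FPKM untreated, and its 95% interval ran from -0.18 to 0.61. Psmg3 had the highest level of the class, at 77.9, 83.8 and 69.1 FPKM with uric acid, against 73.6, 72.9 and 76.2 FPKM untreated. Psmd5, Psmd9 and Psmd10 encode chaperones of the 19S base. Psmd10 (gankyrin) had the lowest level and the lowest value of the class. It stood at 7.93, 6.95 and 6.22 FPKM with uric acid, against 8.00, 8.96 and 11.03 FPKM untreated, separate groups whose nearest libraries differed by less than 0.1 FPKM (-0.41 ± 0.19, edgeR adjusted p = 0.21). Psmd5 also had separate groups, at 22.0 ± 1.21 FPKM with uric acid and 25.0 ± 0.437 FPKM untreated (-0.19 ± 0.07, adjusted p = 0.14), and Psmd9 had a 95% interval from -0.18 to 0.18.

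Of the remaining activators and the inhibitor, Psme3 fell. Psme3 encodes PA28 gamma, an activator found in the nucleus that acts without ubiquitin. It stood at 43.0, 41.5 and 44.3 FPKM in uric acid libraries 1, 2 and 3, against 52.9, 53.2 and 54.97 FPKM in untreated libraries 1, 2 and 3. The gap between the groups was larger than the range within either. Group means were 42.9 ± 1.39 and 53.7 ± 1.11 FPKM (uric acid, then untreated; SD, n = 3 libraries each), and the fitted level fell by 20.1% (log2 fold change -0.32 ± 0.06, edgeR adjusted p = 0.0162). The call remained without uric acid libraries 2 and 3 and was lost without uric acid library 1 (0.0874) and without untreated libraries 1 (0.0501), 2 (0.0813) and 3 (0.0587), while the log2 fold change stayed between -0.35 and -0.30. RefSeq names 4 pseudogenes after Psme3, and reads of such copies may not have been separated. Psme3 (ENSRNOG00000051344) lies on chromosome 10 from 89236256 to 89244041, the chromosome that holds 8 of the 49 genes, Psmd3 among them.

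Psme4 (PA200, an activator linked to histone degradation) averaged 16.5 ± 1.77 FPKM with uric acid and 18.9 ± 1.44 FPKM untreated (-0.20 ± 0.09, edgeR adjusted p = 0.206). Psmf1 (PI31, named as an inhibitor) stood at 53.0, 53.9 and 48.6 FPKM with uric acid, against 46.5, 47.6 and 53.9 FPKM untreated (0.07 ± 0.08). The 2 genes of the name pattern that encode no subunit had values above 0. Psme3ip1, which encodes a partner protein of PA28 gamma, stood at 17.7, 18.97 and 18.6 FPKM with uric acid, against 16.4, 15.8 and 15.6 FPKM untreated. It was the one gene of the 48 whose uric acid libraries all lay above the untreated ones (0.21 ± 0.08, edgeR adjusted p = 0.132). Psmc3ip, a factor of meiotic recombination that overlaps the Mlx (mean 60.3 FPKM) on the other strand, was at 0.14 ± 0.17.

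The 20S genes varied together from library to library. Within the uric acid group library 3 was the lowest of the 3 for 10 of the 14 genes of the alpha and beta rings, against 38.7% of all tested features. Within the untreated group library 1 was the lowest of the 3 for all 14, against 31.4% of all tested features, and library 3 was the highest for 11 of them. The median deviation from the untreated mean was -0.14, 0.03 and 0.10 on the log2 scale in untreated libraries 1, 2 and 3. Over the 6 libraries, pairs of 20S genes had a median Pearson's r of 0.692 and pairs of 19S genes one of 0.396. Pairs of assembly factor genes had 0.617, and pairs of all 48 tested genes 0.424. These values share library scaling and depth, and none was computed over all features. Uric acid library 3 was also the lowest of its group for 6 of the 7 assembly factors. Of the 11 non-ATPase 19S genes, uric acid library 3 was the lowest of its group for 6 and uric acid library 2 for 4, beside 38.7% and 40.6% of all tested features. Without uric acid library 2, 2 proteasome genes were lower and none higher, beside 761 of all 12460 features called in either direction. Without uric acid library 3, 3 were lower and none higher, beside 1173 of all features. Without uric acid library 1, and without each untreated library in turn, edgeR called no proteasome gene in either direction. In these fits the calls over all features also fell, to 299 without uric acid library 1. They were 358, 231 and 495 without untreated libraries 1, 2 and 3, against 994 with all libraries.

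**Figure D4:**
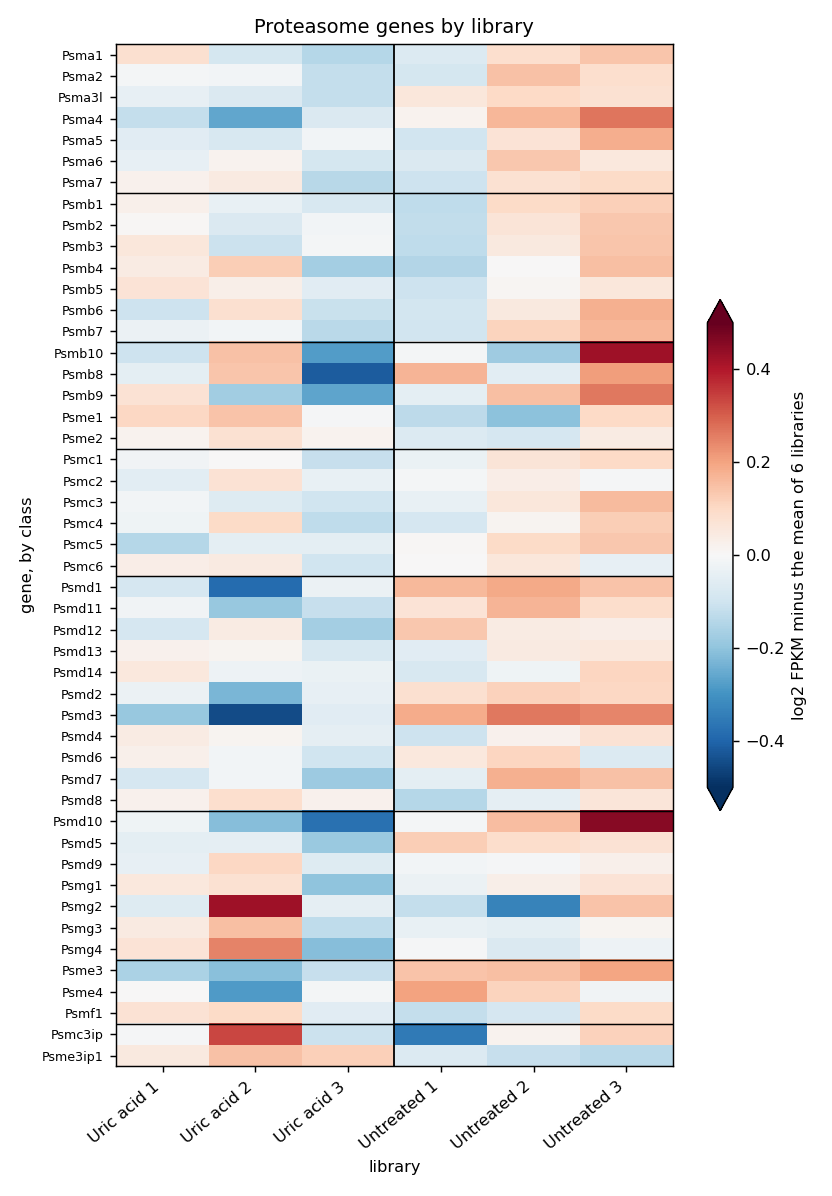
Log2 FPKM of each tested proteasome gene minus its mean over the 6 libraries (colour; rows by class, columns by library, uric acid left of untreated). Within the untreated columns the 14 genes of the alpha and beta rings (top blocks) are lowest in library 1, and Psmd3, Psmd1 and Psme3 are lower in the uric acid columns.

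Log2 fold changes varied with transcript length. Across the 48 tested genes, Spearman's rank correlation between count per FPKM, which is proportional to transcript length, and log2 fold change was -0.459; over all 12460 tested features it was -0.0638. Genes are not independent replicates and share the libraries, so no p is given. The 16 genes of greatest length had a median of -0.19 and held both calls and 8 of the 10 genes whose uric acid libraries all lay below the untreated ones. The 16 shortest had a median of -0.05 and held 1 of the 10. Over all tested features, 2.99% were called lower and 14.2% had all uric acid libraries below the untreated ones. These shares were not computed for long and short features apart. Within the alpha ring the correlation was -0.75 and among the non-ATPase 19S subunits -0.755. It was -0.321 in the beta ring, 0.0357 among the assembly factors and 0.314 among the 6 ATPases. The rank correlation of mean FPKM with log2 fold change was 0.104. The part of length in these differences was not tested.

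**Figure D5:**
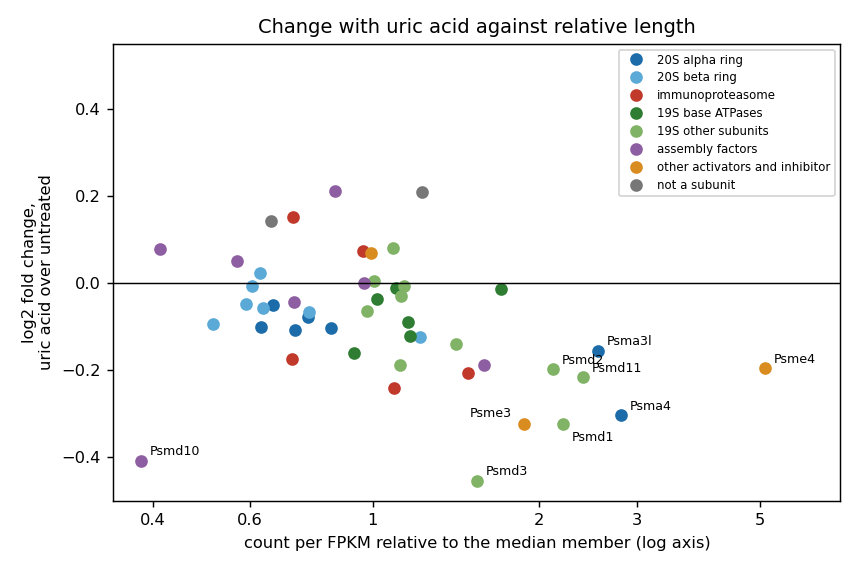
Log2 fold change (y axis, uric acid over untreated) of each tested proteasome gene against its count per FPKM relative to the median gene (x axis, log scale), coloured by class. The longest, Psme4, at 5.11, and Psma4, at 2.81, lie below 0, as do Psmd3, Psmd1 and Psme3; Psmd10, the shortest at 0.381, also lies low.

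Regulators and partners of the proteasome that the name pattern leaves out were read from a list of 36 genes, of which 35 were matched as 36 features, all tested. By edgeR 1 was higher and 1 lower (5.56%, against 7.98% of all features), and the median log2 fold change was -0.03. Maff, a small MAF protein that pairs with NRF factors on antioxidant response elements, stood at 9.91, 11.001 and 8.10 FPKM with uric acid, against 4.28, 4.68 and 5.37 FPKM untreated (1.02 ± 0.15, adjusted p = 0.00553), and passed without any 1 library. The NRF factors themselves did not pass. Nfe2l1 stood at 66.0, 53.3 and 63.1 FPKM with uric acid, against 60.1, 61.4 and 49.6 FPKM untreated (0.09 ± 0.10), and Nfe2l2 averaged 19.03 FPKM with uric acid and 20.2 FPKM untreated (-0.09 ± 0.11).

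Nploc4, which guides ubiquitinated proteins with the segregase VCP to the proteasome, averaged 29.6 ± 1.99 FPKM with uric acid and 36.9 ± 2.02 FPKM untreated (-0.32 ± 0.07, edgeR adjusted p = 0.0307). The call remained without uric acid library 3 (0.0254). It was lost without uric acid libraries 1 (0.114) and 2 (0.0517) and untreated libraries 1 (0.112), 2 (0.113) and 3 (0.0614). Vcp itself averaged 161 FPKM with uric acid and 193 FPKM untreated (-0.26 ± 0.07, adjusted p = 0.0581). Genes of the deubiquitinases Usp14 (-0.14) and Uchl5 (0.03), the activating enzyme Uba1 (-0.18) and the ubiquitin precursor Ubb (0.04) did not pass.

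Pomp, the chaperone that completes the 20S core, could not be read from its own row. Pomp stood at 136, 139 and 229 FPKM with uric acid, against 192, 155 and 155 FPKM untreated, while a row described as a Pomp-like gene stood at 96.7, 102 and 1.504 FPKM with uric acid, against 46.7, 109 and 111 FPKM untreated. The libraries high in one row were low in the other. The sum of both rows was 232, 241 and 230.3 FPKM with uric acid, against 239, 264 and 267 FPKM untreated. Pomp alone had a log2 fold change of 0.00384 ± 0.19, which became -0.28 without uric acid library 3.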

How the data were processed

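Each library has 2 columns in the deposited table, per the file headers: FPKM and counts. The deposited FPKM values are fragments scaled by the authors to transcript length and library total. The deposited count columns are treated as estimated counts, because no source used here says whether a count is a read or a pair; all were whole. Over the 8896 best covered features, the ratio of count to FPKM, each library scaled to its median, spread by no more than 0.539% across libraries. Tools named in the submitters' processing notes are DESeq2, edgeR, StringTie 1.3.4d, HISAT2 2.0.4 and cutadapt 1.9, with no roles; the genome build is not given there. Whether counting used the strand is not stated; 8 of the 49 genes overlap another feature, and for Psmb7, Psme1 and Psmc3ip it lies on the opposite strand.

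Features with a mean of at least 1 FPKM (12460) were tested in edgeR 4.0.16 (quasi-likelihood F test, two-sided, TMM scaling, no covariate; R 4.3.3), with adjusted p over all of them. The groups come from the sample titles. Log2 fold changes had a median SE of 0.0817 for the proteasome genes and 0.113 for all features. Alternatives were 3 other scalings, a looser filter (mean FPKM above 0) and a stricter one (at least 5), DESeq2 1.42.0, limma 3.58.1 on log2(FPKM + 1) and log2(FPKM + 0.1), a robust fit, counts divided by 4, the replicate number as a block, and each library left out.

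The genes, their classes and the lists were chosen with earlier results of these data known. Values in every library are given for genes past the threshold, for the largest value in each direction in each class, for the catalytic subunits, and for the highest and lowest level in the 20S, 19S and assembly classes. Of the other lists, genes past the threshold, Nfe2l1, Nfe2l2 and Pomp were named by rule, and further genes after their values were seen. Some genes of these lists are not reported here, although the counts of the lists include them.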

Additional observations from a re-analysis of the deposited data

How the results depend on the processing

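The 2 lower calls among the proteasome genes, Psmd3 and Psme3, were also made with the other 3 scalings, with both filters, with both limma fits, with the robust fit and with counts divided by 4. DESeq2 called 1765 features in all, 5 proteasome genes lower and 5 features of the list of regulators and partners. With the replicate number as a block, 322 features were called, 0 proteasome genes (Psmd3 at an adjusted p of 0.055 and Psme3 at 0.0694) and 1 of that list. The labels do not say whether libraries of the same number were made together. Same-numbered libraries deviated from their group means with correlations of 0.0684, -0.0492 and -0.19. Uric acid library 2 had -0.225 with untreated library 1 and 0.259 with untreated library 3. With 3 libraries per group these values cannot show whether the numbers mark a shared batch. With 1 library left out, calls ranged from 231 to 1173 over all features, 0 to 3 for proteasome genes lower, 1 to 3 for regulators and partners and 1 to 4 for antigen presentation genes, in fits with fewer residual degrees of freedom. The cause was not tested. The median log2 fold change of the proteasome genes ranged from -0.1315 to -0.0217 over all 17 alternatives. With 1 library left out, 17 of the 48 proteasome genes changed sign in at least 1 fit, none of them past the threshold with all libraries. Of these, Psmb10 turned by more than its SE and ranged from -0.2991 to 0.02879 (positive without untreated library 3). Pomp, at 0.00384 with all libraries, ranged from -0.2819 to 0.1458, and the log2 ratio of Psmb10 to Psmb7 from -0.195 to 0.07996. Among the tested genes of the core, Psmb8 and Psmb9 had the lowest levels, and with Psmb10 the widest intervals.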
